A study of Mus musculus with 6 samples.

Results

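Regulatory T cells of Bcl11b-knockout (KO) mice with EAE were compared with wild-type (WT) regulatory T cells at steady state, in 4 of the 6 RNA-sequencing libraries of a mouse study. EAE stands in this field for experimental autoimmune encephalomyelitis, an induced autoimmune inflammation of the brain and spinal cord that serves as a model of multiple sclerosis. The members were chosen by their labels: KO EAE replicates 1 and 2 against WT replicates 1 and 2. The remaining 2 libraries are KO at steady state, which share with KO EAE the strain label Bcl11bF/WT Foxp3YFP-Cre +/- and share with WT the absence of disease. The WT strain label is Bcl11bF/F, with floxed alleles and no Cre. All cells came from spleen and peripheral lymph nodes, labelled as secondary lymphoid organs, and not from the nervous system. The genotype label calls the Cre-carrying libraries KO although their strain label names a wild-type Bcl11b allele beside the floxed one. Cre is expressed from the Foxp3 locus, which directs recombination to cells that express Foxp3 or have done so. The labels do not show how far recombination stayed within such cells. The Foxp3 locus lies on the X chromosome, where a female with a single Cre allele is a mosaic. Sex, age, the gate of the sort, the way EAE was induced and its stage are not stated in the labels. KO EAE and WT differ in genotype and in disease at once, so each difference below is a joint one, and the effects of both factors cannot be told apart from these 4 libraries. WT cells with EAE were not analysed here.

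Regulatory T cells restrain other immune cells and are defined by the transcription factor Foxp3. They depend on interleukin-2, which they bind through the high-affinity chain Il2ra and which signals through STAT5, and on antigen receptor signals that keep factors such as Irf4 and the Nr4a family expressed. Bcl11b is a zinc finger factor that commits precursors to the T cell lineage and represses genes of natural killer (NK) and innate-like cells. In EAE, helper T cells that make interferon-gamma or interleukin-17 drive disease and regulatory T cells limit it.

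The 4 libraries held 15525373 to 16512337 reads assigned to genes, and the floor of 3 reads was worth 0.182 to 0.193 counts-per-million (CPM), which covers counting error only. CPM values below are scaled by TMM factors unless they are called unscaled. No label says whether replicates came from separate animals, and the spread that p-values are based on is that between samples and may be technical. Bcl11b (chromosome 12, 107910403 to 108003602, mm10) had 419.9 and 425 CPM in WT and 404 and 278 CPM in KO EAE, a log2 change of -0.31 ± 0.17 (SE) that edgeR did not call (adjusted p = 0.313). KO EAE replicate 2 was the low one, and the call changed with it (adjusted p 0.00536 to 0.813 with 1 of the 4 libraries left out, lowest without KO EAE replicate 1). Reads were counted over the whole gene, floxed or not, which makes this a weak check of the labels. Genes that define T cells were read at like levels in all libraries: the summed unscaled level of 21 identity genes was 4436 and 4524 CPM in WT and 4714 and 4523 CPM in KO EAE, and Cd4 had 291 and 288 CPM in WT and 305 and 298 CPM in KO EAE. Xist, transcribed from the inactive X chromosome of female cells, had 469 unscaled CPM in WT replicate 1 and 1.33 in WT replicate 2, against 507 and 345 in KO EAE, while 4 Y-linked genes were listed at 0 in every library. WT replicate 2 therefore stood apart from the other 5 libraries in Xist. The KO EAE replicates differed from each other more than the WT replicates did, at 36.5 against 18.8 in chi-square divided by its degrees of freedom. Of 10950 genes with a KO EAE mean of at least 5 CPM, 412 were more than 2-fold higher in replicate 2 and 142 in replicate 1. In WT the matching numbers were 44 and 91 of 10501 genes. The share of all genes higher in either replicate by any amount was not counted. List counts of that kind given below therefore have no background share.

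Across 14548 genes tested, 1078 were higher and 284 lower in KO EAE than in WT (edgeR quasi-likelihood test, Benjamini-Hochberg adjusted p under 0.05), which is 9.36% of genes, 7.41% higher and 1.95% lower. The change exceeded 2-fold for 871 of the higher and 102 of the lower genes, and 251 of the higher genes averaged under 1 CPM in WT. The median log2 change of all genes was -0.00659. Groups that do not overlap are common with 2 libraries on each side, at 60.6% of genes, so non-overlap alone carries little weight here. The comparison can be taken apart into 2 steps that share libraries with it and with each other: KO against WT called 1873 genes (12.9%), 1369 higher (9.41%) and 504 lower (3.46%). KO EAE against KO called 2 (0.0137%), and 1378 genes had an unadjusted p under 0.05 there. Those 2 genes, named because they are the whole count, were Nr4a3 and Dusp4, and both were higher in KO EAE than in KO. Leaving out WT replicate 1, WT replicate 2, KO EAE replicate 1 and KO EAE replicate 2 in turn gave 542, 594, 2105 and 913 higher genes. The lower genes then numbered 61, 77, 1657 and 189. Leaving out KO replicate 1 or 2, which enter through the filter, the scaling and the shared spread, gave 696 and 679 higher and 121 and 119 lower genes. Of the 1362 called genes, 532 stayed called in all 4 of the first fits, 488 higher and 44 lower. Where a group is left with 1 library, the fit assumes that it varies like the other groups. Counts given below for libraries left out follow that same order, WT replicates 1 and 2, KO EAE replicates 1 and 2, KO replicates 1 and 2. The number of all genes called moved in the same fits, as given above. A change in the count of a list is therefore not by itself particular to that list.

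**Figure D1:**
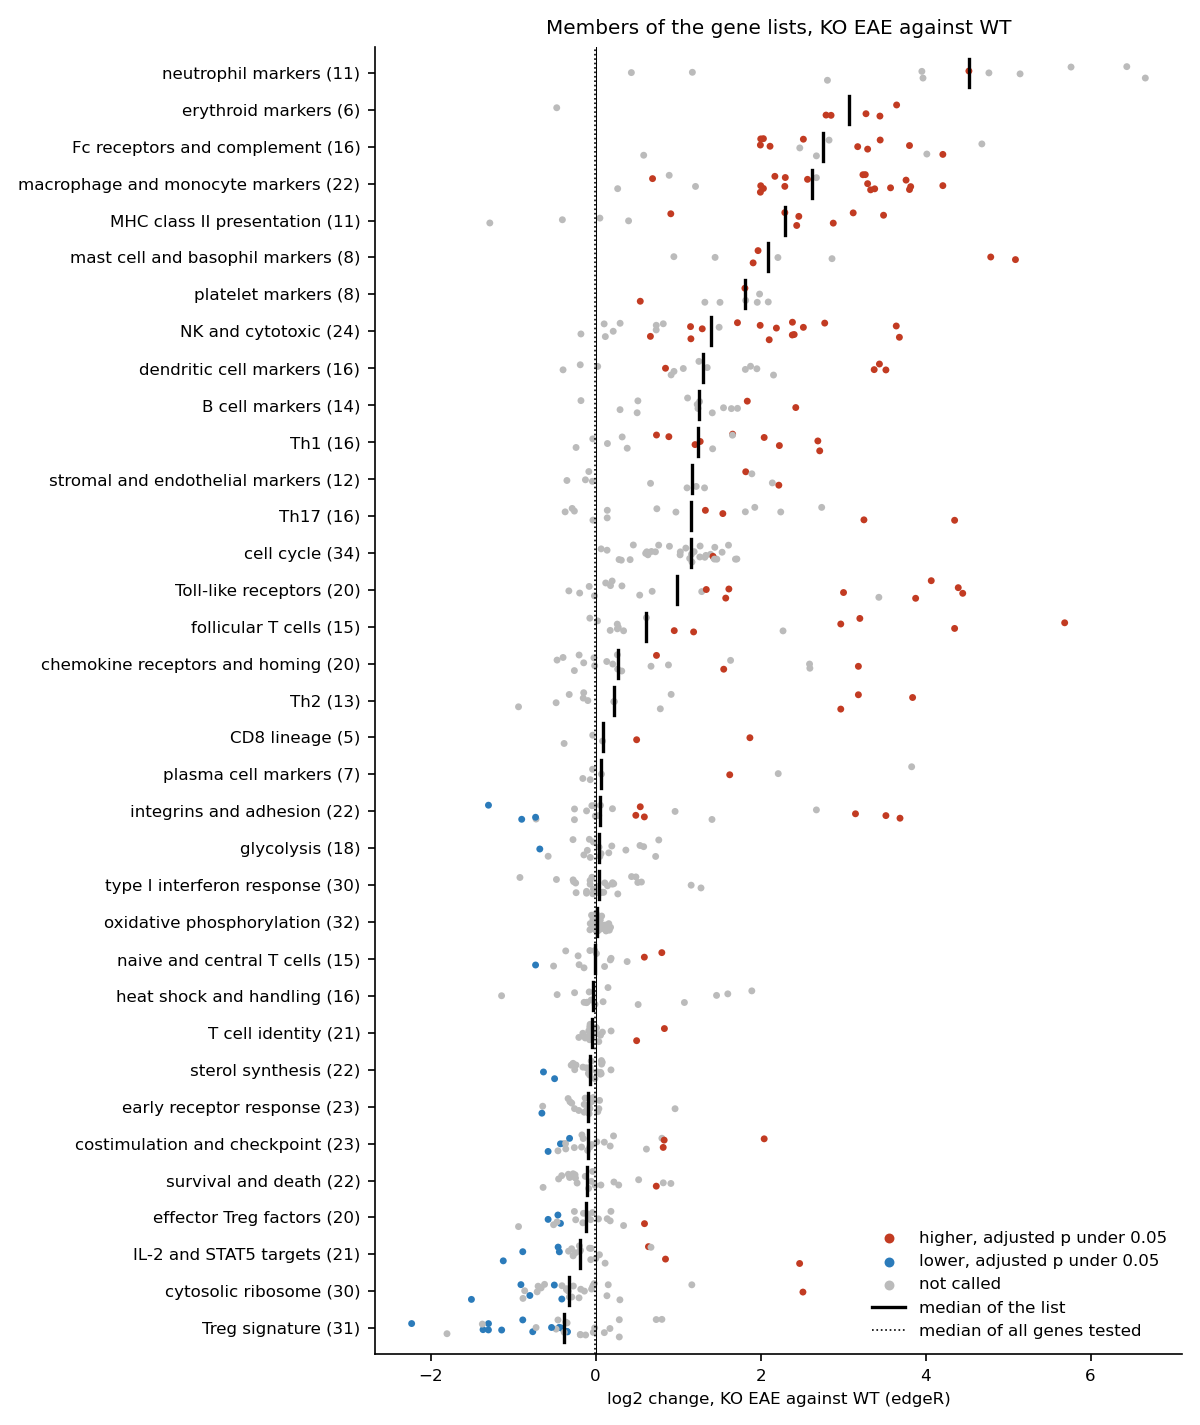
Log2 change of KO EAE against WT (x axis, edgeR) for every tested member of 35 gene lists (y axis, number of tested members in brackets). Each point is a gene, coloured by its call, a black bar marks the median of the list and the dotted line the median of all genes tested. The regulatory T cell signature has the lowest median at -0.38, and lists of macrophage and monocyte markers, Fc receptors and complement, erythroid and neutrophil markers lie at 2.62 to 4.52.

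Part of the regulatory T cell signature was lower in KO EAE cells. Of 31 members tested, 12 fell and none rose, against 1.95% of all genes that fell, and the list median was -0.38. With libraries left out in the stated order, 4, 5, 18, 7, 7 and 7 members fell and 1, 0, 3, 0, 0 and 0 rose. Foxp3 itself (chromosome X, 7573644 to 7595245) had 211 and 206 CPM in WT and 163 and 149 CPM in KO EAE. Both KO EAE libraries lay below both WT libraries, and the log2 change was -0.42 ± 0.08 (edgeR adjusted p = 0.0242), a call lost without either WT replicate or without KO EAE replicate 2 (highest adjusted p 0.184). Il2ra (chromosome 2, 11642807 to 11693193), CD25, had 351 and 333 CPM in WT and 187 and 184 CPM in KO EAE, so the replicates of each group lay close together and far from the other group (log2 change -0.88 ± 0.07, edgeR adjusted p = 0.000963). Lrrc32 (chromosome 7, 98489283 to 98502181), also called GARP, which holds latent TGF-beta on the cell surface, had 307 and 299 CPM in WT and 127 and 119 CPM in KO EAE (log2 change -1.30 ± 0.11). Gpr83 (chromosome 9, 14860210 to 14870789), a G protein-coupled receptor typical of regulatory T cells, fell furthest of the list, from 209 and 197 CPM to 54.5 and 31.9 CPM (log2 change -2.23 ± 0.23, edgeR adjusted p = 0.00272). The calls of Il2ra, Lrrc32 and Gpr83 held with any 1 of the 4 libraries left out.

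Further members of the signature fell by less or less stably. Besides those named next, they were Izumo1r, Capg, Swap70 and Dusp4. Ikzf2, the zinc finger factor Helios, had 505 and 459.7 CPM in WT and 308 and 261 CPM in KO EAE (log2 change -0.76 ± 0.12), and its relative Ikzf4, known as Eos, had 112 and 103 CPM in WT and 51.1 and 32.2 CPM in KO EAE (log2 change -1.36 ± 0.28). Itgb8, the integrin chain that activates TGF-beta, changed by -1.30 ± 0.17, and Nt5e, the CD73 enzyme that makes adenosine, by -0.44 ± 0.10. The call of Itgb8 was lost without WT replicate 1 (adjusted p 0.0714). Those of Ikzf2, Ikzf4 and Nt5e were lost without either WT replicate, and the last 2 also without KO EAE replicate 2 (highest adjusted p 0.0899, 0.153 and 0.252). Ctla4, the receptor that strips costimulatory ligands from antigen-presenting cells, was not called: it had 230.5 and 241 CPM in WT and 189.8 and 154 CPM in KO EAE (log2 change -0.46 ± 0.12, edgeR adjusted p = 0.0719). Tnfrsf18, known as GITR, and Nrp1 were close to the threshold at -0.36 ± 0.09 and -0.35 ± 0.08 (edgeR adjusted p = 0.0586 and 0.051). Leaving out KO EAE replicate 1 brought all 3 under it. The suppressive cytokine Il10 had 29.8 and 38.6 CPM in WT and 30.5 and 22.04 CPM in KO EAE and the growth factor Areg 24.02 and 33.1 CPM in WT and 13.5 and 8.55 CPM in KO EAE, and neither was called (edgeR adjusted p = 0.307 and 0.0641). In the same libraries the median change of macrophage and monocyte markers was 2.62, and their part in this result was not tested. In a bulk sample, fewer regulatory T cells in the sort and less of these RNAs per cell cannot be told apart.

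Targets of interleukin-2 and STAT5 were divided. Of 21 tested, 4 fell and 3 rose (median -0.18), where 7.41% of all genes rose and 1.95% fell. With libraries left out 2, 2, 6, 3, 3 and 3 fell and 0, 0, 3, 2, 1 and 1 rose, so that no rise was called without either WT replicate. Socs2, a feedback inhibitor of cytokine receptors, had 97.8 and 99.5 CPM in WT and 45.1 and 45.8 CPM in KO EAE (log2 change -1.12 ± 0.08, edgeR adjusted p = 0.000461) and kept its call in every fit that left out 1 of the 4 libraries. Cish, a relative of Socs2 and likewise induced by STAT5, had 167 and 166 CPM in WT and 122 and 122 CPM in KO EAE, which is a smaller change of -0.45 ± 0.06 and a call lost without either WT replicate (highest adjusted p 0.0946). The kinase gene Pim2, another STAT5 target, went the other way, with 75.8 and 65.8 CPM in WT and 107 and 113 CPM in KO EAE (log2 change 0.64 ± 0.12, call lost without either WT replicate or KO EAE replicate 2, highest adjusted p 0.152). Il2 itself changed by 2.47 ± 0.39, from 0.563 and 0.674 CPM to 4.24 and 2.699 CPM (call lost without either WT replicate, highest adjusted p 0.106). Irf8, a factor shared by B cells, macrophages and dendritic cells, changed by 0.85 ± 0.17 (call lost without either WT replicate, highest adjusted p 0.151). Among 20 effector genes of regulatory T cells, 3 fell and 1 rose (median -0.12), and with libraries left out 0, 0, 4, 2, 2 and 2 fell and 0, 0, 1, 1, 1 and 1 rose. The costimulatory receptors Tnfrsf4 (OX40) and Tnfrsf9 (4-1BB) changed by -0.58 ± 0.08 and -0.43 ± 0.09, the NF-kappaB subunit Rel by -0.46 ± 0.09, and Id2, a repressor of E proteins, by 0.59 ± 0.10. Leaving out either WT replicate ended each of these 4 calls, leaving out KO EAE replicate 2 also those of Tnfrsf9 and Rel, and leaving out KO EAE replicate 1 that of Tnfrsf9 (highest adjusted p 0.0887, 0.293, 0.193 and 0.11). Batf and Prdm1, factors of effector differentiation, were not called (0.19 ± 0.09 and -0.04 ± 0.18). The rise of macrophage and monocyte markers (median 2.62) stood beside these values, and its part in them was not tested.

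Genes induced by antigen receptor signals had a median nearer to WT in KO EAE than in KO, a difference that was not tested. In KO against WT the list of 23 genes had a median of -0.32, with 5 members lower, where 3.46% of all genes were lower. In KO EAE against WT the median was -0.09, with 1 member called, a fall, where 1.95% of all genes fell. The single call was Nr4a3 (chromosome 4, 48045153 to 48086447), a nuclear receptor without a known ligand that antigen receptor signals induce. It had 270.3 and 272 CPM in WT, 76.2 and 84.6 CPM in KO and 172 and 173 CPM in KO EAE, so the 3 groups did not overlap and KO EAE stood between the others. KO EAE was lower than WT by a log2 change of -0.65 ± 0.08 (edgeR adjusted p = 0.00402, held with any 1 of the 4 libraries left out) and higher than KO by 1.10 (edgeR adjusted p = 0.0455). Dusp4, a phosphatase that switches off MAP kinases, showed the same order with 205 and 204 CPM in WT, 60.2 and 67.1 in KO and 145 and 137 in KO EAE. Its log2 change was -0.53 ± 0.08 against WT (edgeR adjusted p = 0.0105, lost without either WT replicate, highest 0.0814) and 1.15 against KO (adjusted p = 0.0455). Reads recovered from the authors' normalized table gave Nr4a3 only 4.68 and 3.55 unscaled CPM in WT and 1.54 and 0.873 in KO. WT lay above KO there too, but the levels of Nr4a3 and the place of KO EAE rest on the count table. Nr4a1, Egr1, Egr2 and Cd69 were not called against WT, at -0.31 ± 0.13, -0.13 ± 0.13, -0.07 ± 0.12 and -0.03 ± 0.22.

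Several regulators of effector differentiation had the same order of group means without a call between KO EAE and KO. Irf4, which antigen receptor signals induce, had 159 and 172 CPM in WT, 102 and 104 in KO and 149 and 149 in KO EAE. Its log2 change was -0.15 ± 0.07 against WT (edgeR adjusted p = 0.225) and 0.53 against KO (adjusted p = 0.267). Nfil3, a basic leucine zipper factor, had 119 and 124 CPM in WT, 34.5 and 53.2 in KO and 100.1 and 103 in KO EAE, and its log2 change was -0.26 ± 0.19 against WT and 1.22 against KO (edgeR adjusted p = 0.428 and 0.34). For Rel the values were 136 and 130.3, 52.3 and 60.5 and 97.4 and 96.3 CPM. Il10 had 10.96 and 10.5 CPM in KO, under the 30.5 and 22.04 CPM of KO EAE, with a log2 difference of 1.29 (edgeR adjusted p = 0.361). By contrast Il2ra, Ikzf2 and Socs2 differed between KO EAE and KO by -0.02, 0.02 and 0.17, with 186 and 189.5, 297 and 266 and 41.9 and 38.8 CPM in KO. Heat shock genes, which handling can induce, also differed between libraries: Hspa1a had 6.82 and 228 CPM in WT, 12.8 and 113 in KO and 432 and 441 in KO EAE, and the summed unscaled level of that list was 3115 and 3359.6, 2079 and 3294 and 5682 and 4108 CPM. Of its 16 tested genes edgeR called none between KO EAE and WT, 0 had an unadjusted p under 0.05 and DESeq2 called 0. There was 1 fall without KO EAE replicate 1 and 1 rise without replicate 2. The part of handling in the values of receptor-induced genes was not tested.

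**Figure D2:**
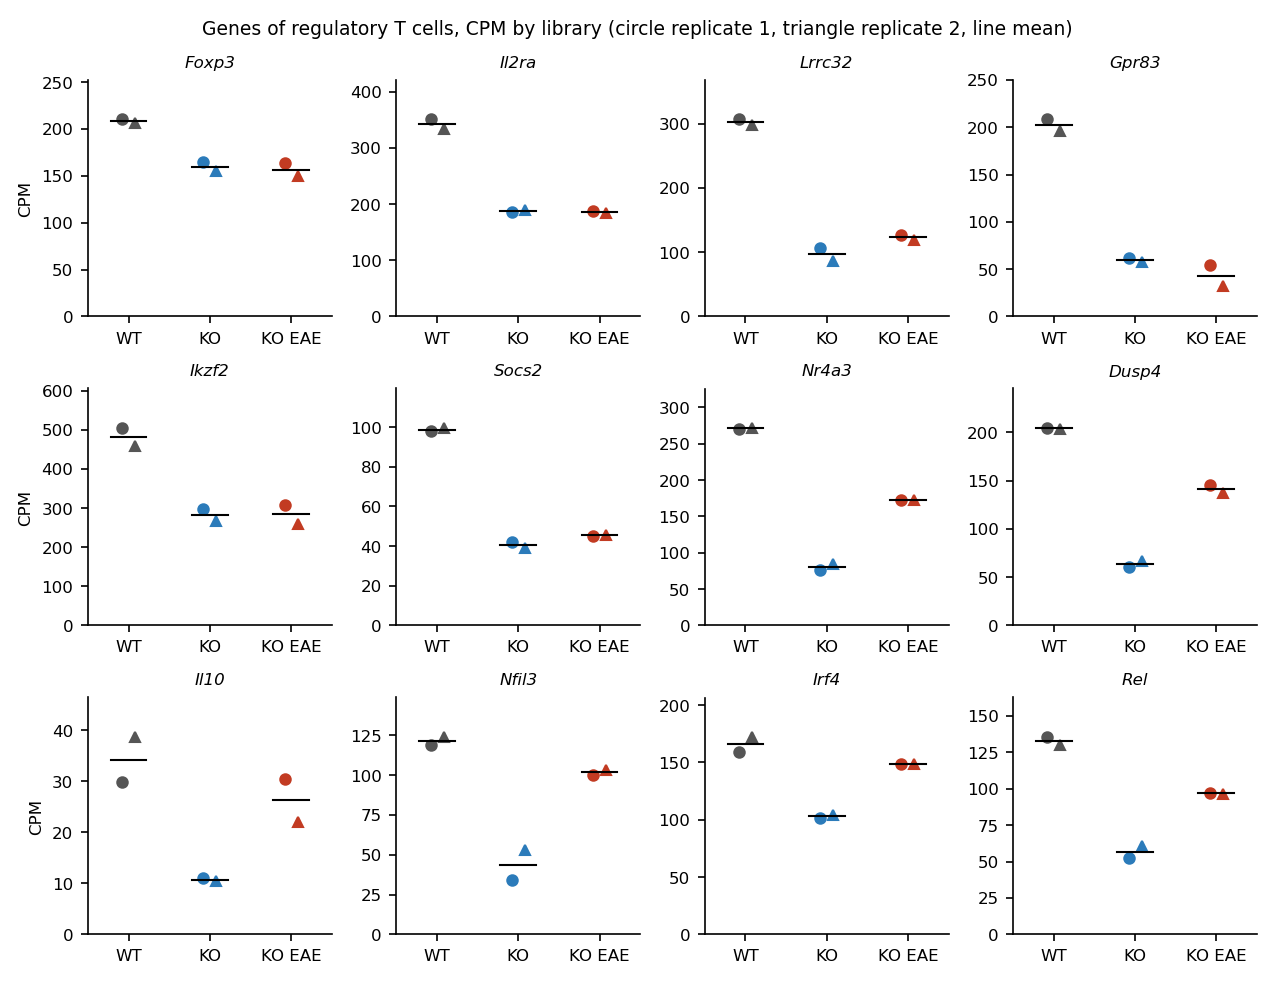
TMM-scaled CPM (y axis, linear from 0) of 12 genes in each library, by group (x axis), with a circle for replicate 1, a triangle for replicate 2 and a line at the group mean. Il2ra, Ikzf2 and Socs2 sit at like levels in KO and KO EAE, and Nr4a3 and Dusp4 sit in KO EAE between KO and WT.

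Genes of type 1 helper (Th1) cells, which make interferon-gamma, were higher in KO EAE. Of 16 tested, 9 rose and none fell, against 7.41% of all genes that rose, with a median of 1.24. With libraries left out 2, 2, 12, 9, 3 and 3 rose. Tbx21 (chromosome 11, 97098071 to 97115331), the T-bet factor that directs Th1 cells, had 14.1 and 14.9 CPM in WT and 49.2 and 86.4 CPM in KO EAE (log2 change 2.23 ± 0.29, edgeR adjusted p = 0.00592). Eomes, a relative of T-bet, had 18.1 and 14.02 CPM in WT and 32.1 and 45.2 CPM in KO EAE (log2 change 1.27 ± 0.21). Ifng, which encodes interferon-gamma, had 25.6 and 32.3 CPM in WT and 66.4 and 67.2 CPM in KO EAE, about level between the KO EAE replicates and above both WT replicates (log2 change 1.21 ± 0.18, edgeR adjusted p = 0.0112). In WT, reads recovered from the authors' normalized table gave Tbx21 29.2 and 45.4 unscaled CPM, above these count-table levels. The Th1 chemokine receptor Cxcr3 changed by 0.74 ± 0.13, the chemokine Ccl5 by 0.89 ± 0.14 and the interleukin-12 receptor chain Il12rb2 by 2.69 ± 0.54. All 16 members were higher in KO EAE replicate 2 than in replicate 1, by a median log2 ratio of 0.51. The call of Tbx21 held with any 1 of the 4 libraries left out, that of Eomes was lost without WT replicate 2, that of Ifng without WT replicate 1, and those of Cxcr3, Ccl5 and Il12rb2 without either (highest adjusted p 0.0857, 0.0617, 0.127, 0.0998 and 0.162). NK and cytotoxic genes, described below, had a median of 1.39 and macrophage and monocyte markers of 2.62 in the same libraries, and which cells carried the Th1 genes was not tested.

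Interleukin-17 and interleukin-21 transcripts were higher in KO EAE. Among all genes 7.41% rose and 1.95% fell, which the list counts below are to be set beside. Of 16 Th17 genes, 4 rose and none fell (median 1.15, with 1, 1, 4, 3, 3 and 3 called when libraries were left out, and 1 fall without KO EAE replicate 1). Il17a had 1.31 and 2.08 CPM in WT and 12.3 and 20.2 CPM in KO EAE, with 3.12 and 8.05 CPM in KO (log2 change 3.25 ± 0.56 against WT, edgeR adjusted p = 0.0183, lost without either WT replicate, highest 0.12). Il21 (chromosome 3, 37222759 to 37232636), a cytokine of follicular and Th17 cells, had 1.94 and 1.71 CPM in WT and 42.7 and 32.1 CPM in KO EAE (log2 change 4.35 ± 0.35, edgeR adjusted p = 0.000871, held with any 1 of the 4 libraries left out). The authors' normalized table carries the same WT library names with different values. Reads recovered from it gave Il21 31.9 and 17.6 unscaled CPM in WT, so the size of this change rests on the WT columns of the count table. It likewise gave Sostdc1 21.2 and 29.8 in WT. The Th17 chemokine receptor Ccr6 was not called, at -0.26 ± 0.24. Of 13 Th2 genes 3 rose and none fell (median 0.22). With libraries left out 2, 3, 3, 2, 2 and 2 rose, and 2 fell without KO EAE replicate 1. The median was -0.11 over members with at least 50 reads in 2 libraries, so its sign depended on the filter. Pparg, a nuclear receptor of lipid metabolism that macrophages and tissue regulatory T cells use, had 3.003 and 1.65 CPM in WT and 32.8 and 34.1 CPM in KO EAE (log2 change 3.84 ± 0.26, edgeR adjusted p = 0.000464), and the eotaxin receptor Ccr3 changed by 3.18 ± 0.23. Gata3, the Th2 master regulator, was not called at -0.09 ± 0.08. Of 15 follicular genes 6 rose and none fell (median 0.62, with 3, 2, 5, 4, 4 and 4 called when libraries were left out). Besides Il21 these included Cebpa, at 24.6 and 24.3 CPM in WT and 58.6 and 52.8 CPM in KO EAE (log2 change 1.19 ± 0.09), a myeloid factor that was on the list, and Sostdc1, which had 0.313 and 0.184 CPM in WT and 22.2 and 4.11 CPM in KO EAE and lost its call without either WT replicate (highest adjusted p 0.139). Bcl6 and Cxcr5, which define follicular cells, were not called at 0.26 ± 0.15 and 0.26 ± 0.15, nor was Pdcd1 at 0.62 ± 0.15 (edgeR adjusted p = 0.0584). The macrophage and monocyte marker list, at a median of 2.62, moved with these genes, and its part here was not tested.

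In a comparison where 7.41% of all genes rose and 1.95% fell, genes of NK cells and cytotoxic T cells were higher in KO EAE. Of 24 tested, 15 rose and none fell (median 1.39), and 6, 8, 17, 13, 10 and 10 rose with libraries left out. Fcer1g (chromosome 1, 171229572 to 171234365), the gamma chain that couples Fc and NK receptors to kinases, had 11.1 and 11.1 CPM in WT and 58.3 and 69.1 CPM in KO EAE (log2 change 2.52 ± 0.11, edgeR adjusted p = 0.000119). Tyrobp (chromosome 7, 30413760 to 30417585), the DAP12 adaptor with the same role, had 9.45 and 9.86 CPM in WT and 43.5 and 44.7 CPM in KO EAE (log2 change 2.19 ± 0.12, edgeR adjusted p = 0.000185). Klrd1, the CD94 chain of NK receptors, had 4.69 and 6.25 CPM in WT and 25.2 and 32.8 CPM in KO EAE (log2 change 2.41 ± 0.22), and Klrb1c, the NK1.1 antigen, had 9.95 and 10.5 CPM in WT and 33.9 and 33.4 CPM in KO EAE (log2 change 1.72 ± 0.18). Gzmk, a granzyme, had 2.25 and 1.78 CPM in WT and 15.4 and 35.1 CPM in KO EAE (log2 change 3.64 ± 0.46). These 5 calls held with any 1 of the 4 libraries left out. The activating receptor Klrk1, known as NKG2D, had 9.88 and 11.1 CPM in WT and 42.2 and 102 CPM in KO EAE (log2 change 2.78 ± 0.42, lost without either WT replicate, highest adjusted p 0.0802). The granzymes Gzma and Gzmb were set apart by 1 library: Gzma had 18.02 and 10.6 CPM in WT and 10.1 and 70.6 CPM in KO EAE, and Gzmb 37.8 and 35.2 CPM in WT and 21.8 and 99.6 CPM in KO EAE. KO EAE replicate 1 lay below both WT libraries for both genes and replicate 2 far above, and neither was called (edgeR adjusted p = 0.292 and 0.496). Of 5 CD8 lineage genes 2 rose and none fell (median 0.08, with 0, 0, 2, 2, 1 and 1 called when libraries were left out). These were Crtam, an adhesion receptor of activated cytotoxic cells, at 1.87 ± 0.32, and Runx3 at 0.497 ± 0.08, and both calls were lost without either WT replicate (highest adjusted p 0.113 and 0.105). Cd8a had 1.56 and 1.102 CPM in WT and 0.4497 and 2.38 CPM in KO EAE and Cd8b1 25.8 and 24.4 CPM in WT and 19.4 and 19.1 CPM in KO EAE, neither called. Reads recovered from the authors' normalized table gave Fcer1g higher WT levels than the count table, as listed at the end. Fcer1g and Tyrobp are also expressed by macrophages. Beside them macrophage and monocyte markers stood at a median of 2.62, whose part in the result was not tested.

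Macrophage and monocyte markers rose in large number, where 7.41% of all genes rose and 1.95% fell. Of 22 tested, 18 rose and none fell (median 2.62), with 17, 16, 21, 18, 17 and 17 when libraries were left out, so this count moved little. The summed unscaled level of the list was 769 and 744 CPM in WT, 2840.04 and 3277 in KO and 2399.6 and 3134 in KO EAE. Adgre1 (chromosome 17, 57358691 to 57483527), which encodes F4/80, had 22.4 and 18.7 CPM in WT and 181 and 208 CPM in KO EAE (log2 change 3.24 ± 0.15, edgeR adjusted p = 0.000146). Csf1r, the receptor for the macrophage growth factor, had 48.1 and 58.7 CPM in WT and 310.3 and 323 CPM in KO EAE (log2 change 2.57 ± 0.14). Reads recovered from the authors' normalized table gave Csf1r higher WT levels than the count table, as listed at the end. C1qa, a chain of complement C1q, had 26.9 and 23.6 CPM in WT and 99.7 and 102 CPM in KO EAE (log2 change 2.001 ± 0.11), and the phagocytic receptor Mertk had 6.13 and 8.39 CPM in WT and 93.1 and 112 CPM in KO EAE (log2 change 3.82 ± 0.20). Fcgr1, the high-affinity receptor for IgG, changed by 4.21 ± 0.35, the low-affinity receptors Fcgr3 and Fcgr4 by 3.30 ± 0.18 and 3.80 ± 0.28, and Fcgrt, the neonatal Fc receptor, by 3.45 ± 0.11. In all, 10 of 16 genes of Fc receptors and complement rose and none fell (9, 9, 15, 9, 10 and 10 with libraries left out). Lyz2 had 27.2 and 15.5 CPM in WT and 74.5 and 136 CPM in KO EAE (log2 change 2.30 ± 0.38, lost without WT replicate 2, adjusted p 0.0705). Itgam, the CD11b chain of monocytes, neutrophils and NK cells, had 7.32 and 7.96 CPM in WT and 10.7 and 87.1 CPM in KO EAE and was not called (edgeR adjusted p = 0.129). None of its members was at 0 reads in either KO EAE library.

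Part of the dendritic cell markers rose, where 7.41% of all genes rose and 1.95% fell. Of 16 tested 4 rose and none fell (median 1.30, with 3, 3, 5, 4, 3 and 3 called when libraries were left out, and 1 fall without KO EAE replicate 1). The summed unscaled level of the list was 310.01 and 291 CPM in WT and 588 and 717 CPM in KO EAE. The largest rises were of genes that macrophages also express, Itgax at 5.005 and 6.31 CPM in WT and 59.3 and 70.6 CPM in KO EAE (log2 change 3.52 ± 0.20) and Sirpa at 22.8 and 23.7 CPM in WT and 232 and 272 CPM in KO EAE (log2 change 3.44 ± 0.13, edgeR adjusted p = 8.25e-05). Batf3, a factor that cross-presenting dendritic cells need, rose by 3.38 ± 0.42. Clec9a, a receptor of cross-presenting dendritic cells, had 0.313 and 0.429 CPM in WT and 0.514 and 0.8997 CPM in KO EAE, and Siglech, which marks plasmacytoid dendritic cells, 0.313 and 0.551 CPM in WT and 0.385 and 2.699 CPM in KO EAE. Neither was called. Of 20 Toll-like receptor genes 8 rose and none fell (median 0.99, with 6, 6, 11, 9, 7 and 6 called when libraries were left out). The RNA sensors Tlr8 and Tlr13 changed by 4.40 ± 0.32 and 4.07 ± 0.30, the lipopolysaccharide receptor Tlr4 by 3.005 ± 0.17, Tlr2 by 1.61 ± 0.25 and Cd180, a relative of Tlr4, by 4.45 ± 0.44. The call of Tlr2 was lost without either WT replicate (highest adjusted p 0.0842), and the other 4 held. Tlr7, also an RNA sensor, had 135 and 50.5 CPM in WT and 68.7 and 115 CPM in KO EAE and was not called. Of these 4 libraries WT replicate 1 was highest and WT replicate 2 lowest.

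Genes of MHC class II presentation display peptides to CD4 T cells on B cells, macrophages and dendritic cells. Most of them rose with the macrophage markers, in a comparison where 7.41% of all genes rose and 1.95% fell. The log2 change was above 0 for 9 and below 0 for 2 of them, the lowest at -1.28. For those 2 both KO EAE libraries lay below both WT libraries, and neither was called with all libraries in the fit. Of 11 tested, 7 rose and none fell (median 2.29), and 6, 6, 8, 7, 7 and 7 rose with libraries left out, with 1 fall without KO EAE replicate 1 and without replicate 2. H2-Aa (chromosome 17, 34282744 to 34287823) had 20.5 and 18.6 CPM in WT and 88.6 and 103 CPM in KO EAE (log2 change 2.29 ± 0.14, edgeR adjusted p = 0.000304), H2-Ab1 changed by 2.44 ± 0.15 and H2-Eb1 by 2.46 ± 0.19. H2-DMb1, a chain of the peptide-loading chaperone, had 5.005 and 4.899 CPM in WT and 45.99 and 65.4 CPM in KO EAE (log2 change 3.49 ± 0.21). Cd74, the invariant chain, had 77.6 and 74.04 CPM in WT and 137 and 149 CPM in KO EAE and changed by 0.91 ± 0.12. Each of these 5 calls held with any 1 of the 4 libraries left out. Ciita, the coactivator of class II genes, had 2.502 and 2.88 CPM in WT and 14.5 and 32.5 CPM in KO EAE (log2 change 3.12 ± 0.47, lost without either WT replicate, highest adjusted p 0.0814). For Ciita too, reads recovered from the authors' normalized table gave higher WT levels than the count table, as listed at the end. Class II promoters are known for a Y box, a reversed CCAAT sequence that the factor NF-Y binds. The letters GATTGG, searched on both strands in RefSeq promoter windows (GRCm38.p6, 250 bases before to 50 after each start), stood in 7 of the 8 list genes that had a window and in 16.1% of all 32851 windows. Windows of 3 genes that rose are shown because these genes moved together, 5′ to 3′ on the gene's strand, with GATTGG or its reverse complement in capitals. A match describes letters only.
H2-Aa, chr17:34287774-34288073, minus strand: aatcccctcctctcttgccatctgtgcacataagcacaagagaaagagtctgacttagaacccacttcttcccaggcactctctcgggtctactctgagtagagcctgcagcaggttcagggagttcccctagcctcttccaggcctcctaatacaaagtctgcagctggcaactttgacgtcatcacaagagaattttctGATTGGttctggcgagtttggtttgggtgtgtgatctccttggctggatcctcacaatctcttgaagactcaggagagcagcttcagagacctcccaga
H2-Eb1, chr17:34305617-34305916, plus strand: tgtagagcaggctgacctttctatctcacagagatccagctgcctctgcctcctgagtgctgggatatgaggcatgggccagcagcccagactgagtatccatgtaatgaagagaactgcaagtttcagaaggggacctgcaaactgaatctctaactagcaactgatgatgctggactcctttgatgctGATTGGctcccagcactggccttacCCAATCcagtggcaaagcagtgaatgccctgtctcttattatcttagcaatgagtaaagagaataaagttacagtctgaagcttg
H2-DMb1, chr17:34152941-34153240, plus strand: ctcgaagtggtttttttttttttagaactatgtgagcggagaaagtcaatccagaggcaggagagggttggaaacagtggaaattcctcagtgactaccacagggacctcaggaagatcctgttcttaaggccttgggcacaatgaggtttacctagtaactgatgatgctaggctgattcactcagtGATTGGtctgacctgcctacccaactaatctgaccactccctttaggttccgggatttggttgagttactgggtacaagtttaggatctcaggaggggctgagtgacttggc
In these 3 windows the first letter of GATTGG on the gene's strand lay at -49, -60 and -62, counted from the first transcribed base as 0.

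**Figure D3:**
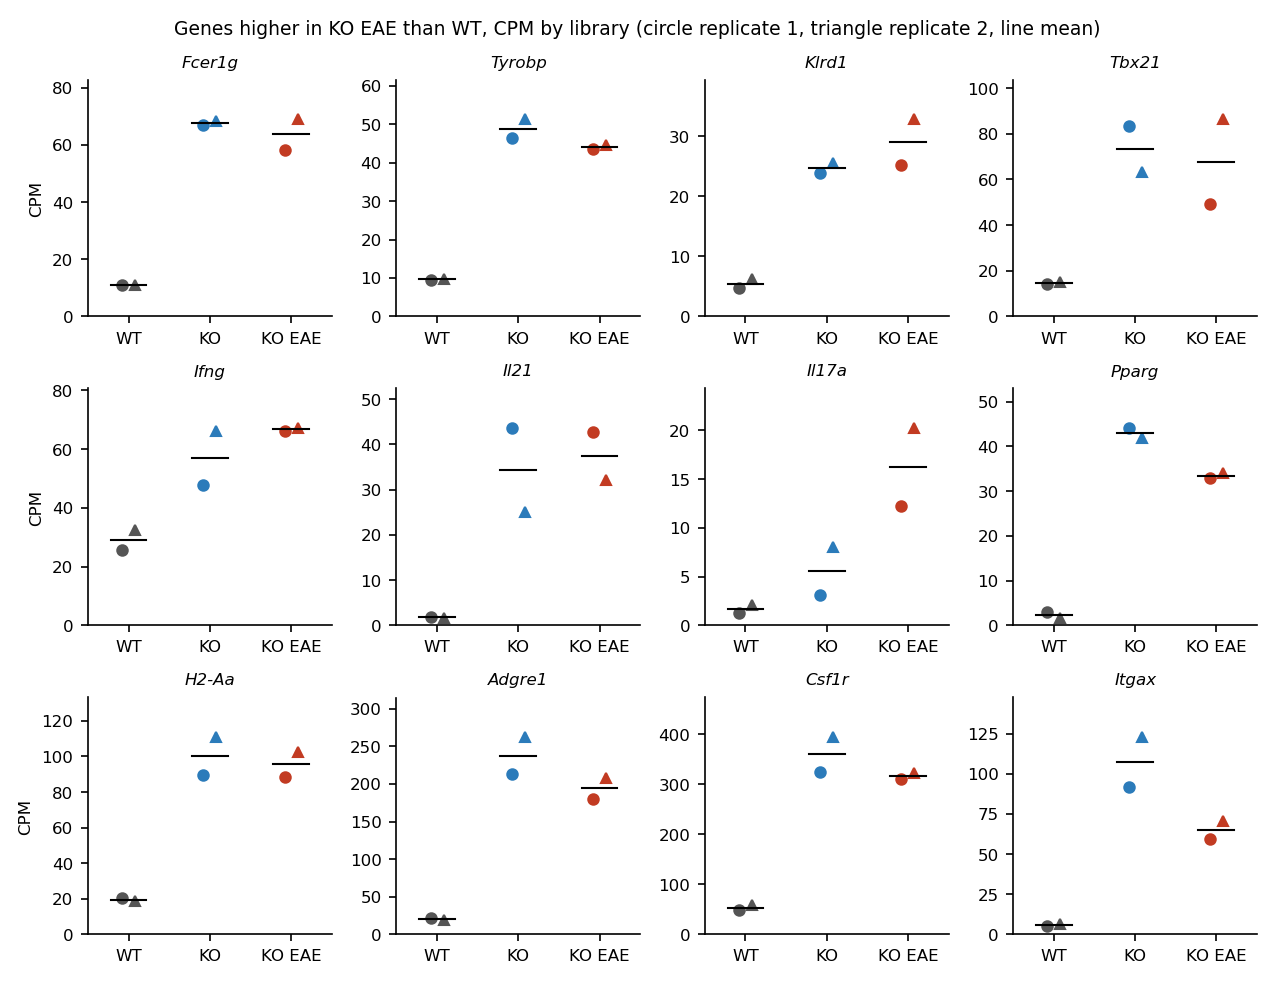
TMM-scaled CPM (y axis, linear from 0) of 12 genes that were called higher in KO EAE than in WT, in each library by group (x axis), with a circle for replicate 1, a triangle for replicate 2 and a line at the group mean. Both KO EAE libraries lie above both WT libraries in every panel, and Tbx21 and Il17a show the widest gap between the KO EAE replicates.

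Markers of further cell types had positive medians, with calls that ranged from 1 of 11 neutrophil to 5 of 6 erythroid markers, where 7.41% of all genes rose. Of the tested markers, 14 of 14 for B cells, 10 of 11 for neutrophils, 5 of 6 for erythroid cells and 4 of 7 for plasma cells were higher in KO EAE replicate 2 than in replicate 1. Neutrophil markers had the highest median of all lists at 4.52, but only Csf3r, the receptor for granulocyte growth factor, was called among 11 tested, at 1.63 and 0.612 CPM in WT and 15.9 and 35.8 CPM in KO EAE (log2 change 4.52 ± 0.59). The alarmins S100a8 and S100a9 had 2.63 and 14.8 and 4.497 and 22.2 CPM in KO EAE, against WT libraries at no more than 3 reads, and neither was called (edgeR adjusted p = 0.128 and 0.0796). The summed unscaled level of neutrophil markers was 19.7 and 29.997 CPM in WT and 68.01 and 196 CPM in KO EAE, and without KO EAE replicate 1 the number called rose from 1 to 8. B cell markers summed to 67.6 and 59.8 CPM in WT and 129 and 224 CPM in KO EAE. Of them 2 rose (median 1.25, with 1, 1, 3, 2, 2 and 2 called when libraries were left out), Cd22 at 2.43 ± 0.35 and Bank1 at 1.84 ± 0.20, whereas Ms4a1, Cd79a and Cd79b, which B cells express, were not called at 1.65 ± 1.17, 0.30 ± 0.54 and -0.18 ± 0.24. Of 6 tested erythroid markers 5 rose (median 3.07, with 1, 1, 5, 2, 4 and 4 called when libraries were left out), among them Alas2, the first enzyme of heme synthesis in red cell precursors, at 2.13 and 1.65 CPM in WT and 9.44 and 16.8 CPM in KO EAE, and Epor at 3.28 ± 0.22, while 4 globin genes were listed at 0 in every library. Of 8 mast cell and basophil markers 4 rose (median 2.09, with 2, 1, 5, 3, 2 and 1 called when libraries were left out), Kit among them at 1.97 ± 0.32. Platelet markers had 2 rises of 8 (median 1.81, with 0, 0, 8, 1, 1 and 1 called when libraries were left out), stromal and endothelial markers 2 of 12 (median 1.16, with 0, 0, 5, 1, 0 and 0 called in the same fits) and plasma cell markers 1 of 7 (median 0.07, with 0, 1, 2, 0, 0 and 0 called in the same fits), the last being Sdc1 at 1.63 ± 0.36. Jchain, the joining chain of secreted IgM and IgA, had 3.13 and 19.2 CPM in WT and 37.2 and 66.7 CPM in KO EAE, with WT replicate 1 lowest, and was not called. The summed unscaled level of erythroid markers did not rise with their median, at 156 and 171 CPM in WT and 153 and 162 CPM in KO EAE. Stromal and endothelial markers summed to 211 and 204 against 214 and 236 CPM and plasma cell markers to 311 and 365 against 347 and 394 CPM. Sums for platelet markers were 143 and 143.5 against 220 and 286 CPM, and for mast cell and basophil markers 10.8 and 10.5 against 32.4 and 63.6 CPM.

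Cell cycle genes were read most in KO EAE replicate 2, and few were called against WT, where 7.41% of all genes rose. All 34 tested had a positive log2 change against WT, with a median of 1.15, but 1 was called, E2f1 at 1.42 ± 0.32 (edgeR adjusted p = 0.0459, lost without either WT replicate or KO EAE replicate 2). All 34 were higher in KO EAE replicate 2 than in replicate 1, by a median log2 ratio of 1.02, and their summed unscaled level was 1900.1 and 1689 CPM in WT, 2225 and 2353 in KO and 2298 and 4258 in KO EAE. Mki67, the gene of the proliferation antigen Ki-67, had 164 and 136 CPM in WT and 212 and 538 CPM in KO EAE, and Top2a, the topoisomerase of dividing cells, 133 and 116 CPM in WT and 173 and 333 CPM in KO EAE. KO EAE replicate 1 lay near the KO libraries, which had 190.1 and 220.3 and 159 and 199 CPM, and replicate 2 above all others. Neither gene was called (edgeR adjusted p = 0.102 and 0.0926). With libraries left out 0, 0, 32, 3, 0 and 0 members rose, so that KO EAE replicate 2 set against WT gave 32 calls and KO EAE replicate 1 gave 3, with list medians of 1.56 and 0.49. Further genes outside the cell cycle list also differed between the KO EAE replicates, and the 4 given next were named after their values were seen. In unscaled CPM, Fn1 had 1.51 and 2.61 in WT, 3.19 and 13.6 in KO and 7.26 and 58.03 in KO EAE. Mpo had 0.606 and 0.364 in WT, 1.95 and 2.11 in KO and 2.42 and 33.2 in KO EAE. Both were highest in KO EAE replicate 2. S1pr5 had 2.36 and 1.15 in WT, 16.8 and 16.6 in KO and 2.36 and 19.5 in KO EAE. Cx3cr1 had 5.45 and 2.91 in WT, 33.8 and 40.8 in KO and 8.21 and 43.5 in KO EAE. For the last pair, which are on the list of chemokine and homing receptors, KO EAE replicate 1 lay near WT. Replicate 2 lay near the KO libraries. Their part in the cell cycle values was not tested.

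Interferon-response genes differed between the replicates of both groups, and none was called between the groups. Of 30 tested none was called by edgeR (median 0.04). Among them 0 had an unadjusted p under 0.05, against 3824 of all genes, and DESeq2 called 0. All 30 were lower in WT replicate 2 than in WT replicate 1, by a median log2 ratio of -1.37, and 29 were higher in KO EAE replicate 2 than in replicate 1, by 0.77. Their summed unscaled level was 4729.6 and 1916 CPM in WT, 2475 and 2456 in KO and 2669 and 4479 in KO EAE. Ifit3, an antiviral protein of the IFIT family, had 421 and 44.1 CPM in WT and 119 and 373 CPM in KO EAE, so WT replicate 1 and KO EAE replicate 2 were the high libraries. Isg15, a ubiquitin-like modifier, had 51.4 and 23.8 CPM in WT and 33.1 and 49.9 CPM in KO EAE, and Irf7, which amplifies the response, 197 and 83.3 CPM in WT and 117 and 206 CPM in KO EAE. The list median was 0.98 without WT replicate 1 and -0.37 without WT replicate 2, so its sign follows the WT library used, and 2, 0, 1, 0, 0 and 0 members were called higher and 0, 1, 0, 0, 0 and 0 lower with libraries left out. WT replicate 2 is also the library with little Xist. The element that interferon-activated factors bind is known as ISRE. The letters GAAA, followed by 2 bases of any kind and GAAA, were searched on both strands and stood in 12 of the 21 list genes with a RefSeq window and in 3.44% of all windows. The windows of Ifit3 and Isg15 are shown because these genes moved together between replicates, with each match on either strand in capitals, where neighbouring matches can overlap.
Ifit3, chr19:34583279-34583578, plus strand: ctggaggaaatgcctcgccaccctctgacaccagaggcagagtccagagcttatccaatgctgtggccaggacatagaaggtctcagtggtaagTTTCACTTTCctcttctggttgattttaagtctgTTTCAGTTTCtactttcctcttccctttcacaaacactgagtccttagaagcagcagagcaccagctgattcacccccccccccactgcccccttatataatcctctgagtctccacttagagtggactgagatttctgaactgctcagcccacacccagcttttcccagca
Isg15, chr4:156200769-156201068, minus strand: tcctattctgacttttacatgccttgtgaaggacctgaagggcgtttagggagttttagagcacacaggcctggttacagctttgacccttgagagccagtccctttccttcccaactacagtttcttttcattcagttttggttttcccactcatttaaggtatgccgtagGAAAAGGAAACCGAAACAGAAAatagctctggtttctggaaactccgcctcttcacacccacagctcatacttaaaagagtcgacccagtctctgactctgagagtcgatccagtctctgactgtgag
In Ifit3 both matches read as the reverse complement on the gene's strand, and Isg15 holds 3 matches that overlap.

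**Figure D4:**
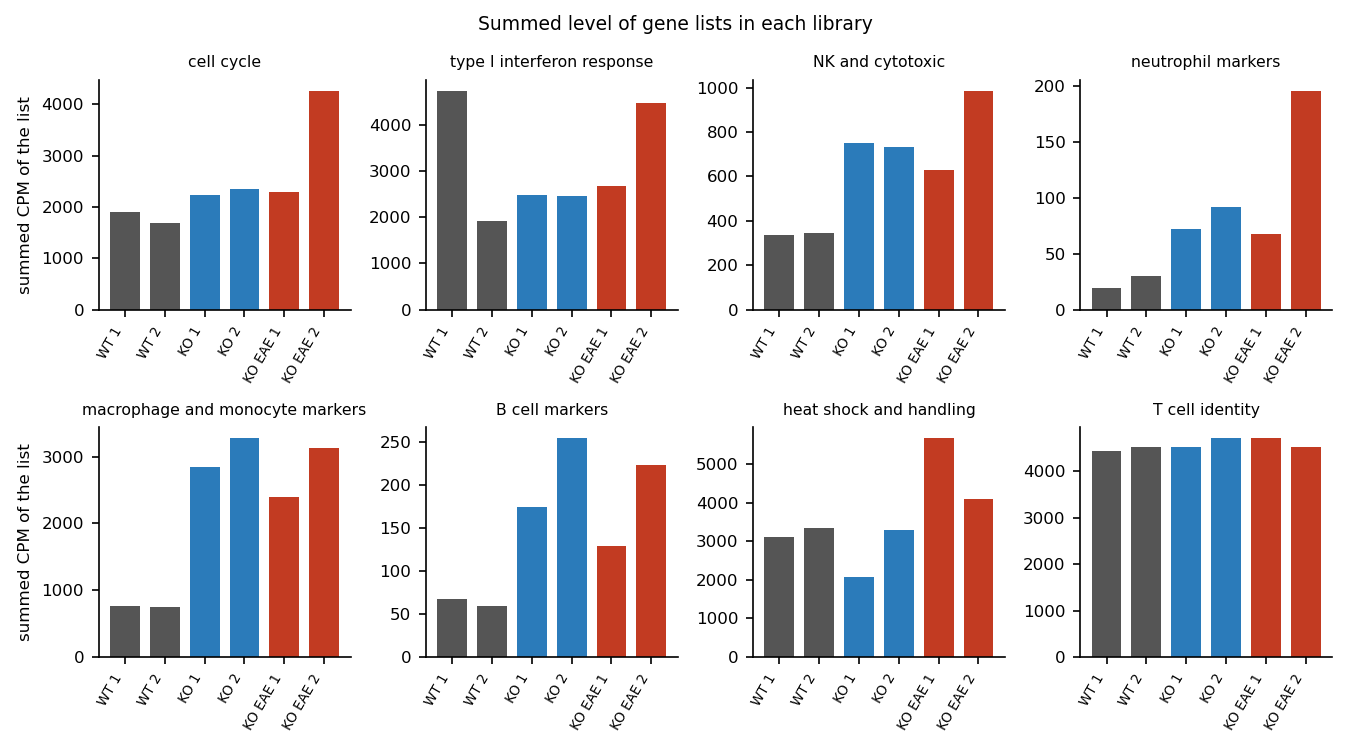
Summed unscaled CPM of 8 gene lists (y axis, linear from 0) in each of the 6 libraries (x axis), coloured by group. Cell cycle genes are highest in KO EAE replicate 2, interferon-response genes in WT replicate 1 and KO EAE replicate 2, macrophage markers in all KO and KO EAE libraries, and T cell identity genes are level across libraries.

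Receptors for migration and adhesion changed in both directions. Cd44, which memory cells carry, had 162 and 187 CPM in WT and 259 and 267 CPM in KO EAE (log2 change 0.59 ± 0.12, lost without either WT replicate or KO EAE replicate 2, highest adjusted p 0.165). It was among 2 rises, beside 1 fall, in 15 genes of naive and central cells, where 7.41% of all genes rose and 1.95% fell. In the fits with libraries left out there were rises of 0, 0, 2, 0, 1 and 1 genes and falls of 0, 1, 5, 0, 0 and 0 genes, so the counts depended on the libraries. On this list Ccr7, Tcf7 and Lef1 were not called (-0.20 ± 0.11, 0.19 ± 0.09 and 0.18 ± 0.09). Of 20 chemokine and homing receptors 3 rose and none fell (median 0.27). The median was 0.20, 0.38, 0.37, 0.10, 0.26 and 0.27 with libraries left out in the stated order. The numbers called higher or lower changed with the libraries. Cxcr6, a receptor of tissue-homing T and NK cells, had 17.9 and 26.5 CPM in WT and 67.3 and 62.9 CPM in KO EAE (log2 change 1.55 ± 0.18, held with any 1 of the 4 libraries left out). Of 22 integrins and adhesion genes 6 rose and 3 fell (rises of 2, 3, 9, 4, 6 and 5 genes and falls of 0, 2, 3, 2, 1 and 1 genes with libraries left out). Itgb5, a chain of a vitronectin receptor, had 7.51 and 10.2 CPM in WT and 114 and 116 CPM in KO EAE (log2 change 3.69 ± 0.16, edgeR adjusted p = 9.96e-05), and Itga6, a laminin receptor chain, had 383 and 406 CPM in WT and 248 and 176 CPM in KO EAE (log2 change -0.90 ± 0.16, lost without either WT replicate, highest adjusted p 0.11). Itga4, the alpha4 chain through which T cells enter the inflamed nervous system, had 579.5 and 577 CPM in WT and 631 and 701 CPM in KO EAE and was not called (log2 change 0.20 ± 0.10, edgeR adjusted p = 0.264). Of 23 costimulatory and checkpoint genes 3 rose and 3 fell (rises of 2, 1, 3, 2, 0 and 0 genes and falls of 0, 0, 6, 1, 1 and 1 genes with libraries left out). Cd40lg, the helper ligand for CD40, had 43.3 and 56.5 CPM in WT and 92.1 and 83.9 CPM in KO EAE (log2 change 0.82 ± 0.15, lost without WT replicate 1, adjusted p 0.0704), and Icos and Lag3 were not called at 0.18 ± 0.09 and 0.80 ± 0.21. Themis, which tunes T cell receptor signalling in thymocytes, was 1 of 2 T cell identity genes that rose and had 122 and 122 CPM in WT and 219.9 and 214 CPM in KO EAE (log2 change 0.83 ± 0.08, edgeR adjusted p = 0.00226), and Runx3, a factor of cytotoxic and Th1 cells, changed by 0.497 ± 0.08 (lost without either WT replicate, highest adjusted p 0.105). Itgb5 and Itgax are also macrophage genes. The median of macrophage and monocyte markers was 2.62 in these libraries, and their part in the values was not tested.

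Metabolic lists had few calls, where 7.41% of all genes rose and 1.95% fell. Of 18 glycolysis genes 1 fell and none rose, with falls of 1, 1, 2, 1, 1 and 1 genes and rises of 0, 0, 3, 1, 0 and 0 genes when libraries were left out. Slc2a3, the glucose transporter GLUT3, had 174 and 195 CPM in WT and 116 and 115 CPM in KO EAE (log2 change -0.68 ± 0.08, held with any 1 of the 4 libraries left out). The transporter Slc2a1 had 129.9 and 137 CPM in WT and 112 and 109 CPM in KO EAE and was not called (edgeR adjusted p = 0.063). None of 32 oxidative phosphorylation genes was called by edgeR (median 0.02), with 0 at an unadjusted p under 0.05 and 0 called by DESeq2, and none was with any 1 of the 6 libraries left out. Of 22 sterol synthesis genes 2 fell, among them the enzyme Mvd at -0.497 ± 0.10 (list median -0.06, with 0, 0, 3, 1, 0 and 0 called when libraries were left out). Of 22 survival genes 1 rose, under the 7.41% of all genes, with rises of 0, 0, 3, 4, 1 and 1 genes and falls of 0, 0, 6, 0, 0 and 0 genes when libraries were left out. It was Bcl2a1d at 0.74 ± 0.13, whose reads can be split among near-identical copies and whose call was lost without either WT replicate (highest adjusted p 0.112). The death factor Bcl2l11 was not called, with 154 and 150.3 CPM in WT and 158 and 98.1 CPM in KO EAE. Of 30 cytosolic ribosome genes 5 fell and 1 rose (falls of 1, 0, 10, 2, 1 and 1 genes and rises of 1, 2, 2, 1, 1 and 1 genes with libraries left out), but these genes have many processed copies that can share reads, and single members swung between replicates. Rpl13 had 206 and 186 CPM in WT and 1181 and 1054 CPM in KO EAE, and Rpl3 had 153 unscaled CPM in KO EAE replicate 1 and 1348 in replicate 2, so their values are uncertain.

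The largest single rises among genes of at least 5 CPM on average, after Sostdc1, were Lilra6, Clec4b1, Mmp13, Siglec1, Nxpe5, Gpr141, Csf3r, Lpl, Cdk14, Cd180 and Kcnk13, with log2 changes from 5.23 down to 4.43. Several are receptors or enzymes of myeloid cells. Siglec1, the sialic acid receptor of macrophages that line lymphoid sinuses, had 6.76 and 1.96 CPM in WT and 81.1 and 175 CPM in KO EAE (log2 change 4.88 ± 0.59, edgeR adjusted p = 0.00456), and Lpl, lipoprotein lipase, had 4.13 and 4.41 CPM in WT and 85.2 and 105 CPM in KO EAE (log2 change 4.47 ± 0.29). Clec4b1, a C-type lectin of dendritic cells, had 0.438 and 0.122 CPM in WT and 9.38 and 10.3 CPM in KO EAE. Mmp13, a collagenase, had 0.563 and 0.122 CPM in WT and 4.37 and 18.9 CPM in KO EAE, higher in replicate 2 of KO EAE. The calls of Sostdc1, Lilra6 and Mmp13 were lost with some of the 4 libraries left out (highest adjusted p 0.139, 0.137 and 0.118), and those of the other 9 held. The largest falls were Ntn4, Stra6, Khdc1a, Rasip1, Drc1, Gata1, Peli2, Fsd1l, Ppm1l, Gpr83, Selp and Arhgap20, from -3.91 to -2.17. Ntn4, a secreted netrin, had 24.02 and 12.9 CPM in WT and 1.799 and 0.643 CPM in KO EAE (log2 change -3.91 ± 0.55, edgeR adjusted p = 0.00809). Gata1, known as a factor of red cells and megakaryocytes, fell from 43.5 and 36.4 CPM to 9.38 and 6.298 CPM (log2 change -2.35 ± 0.24), opposite in direction to the erythroid markers. Selp, P-selectin, had 9.82 and 8.39 CPM in WT and 2.25 and 1.67 CPM in KO EAE. Peli2, a ubiquitin ligase of Toll-like receptor signalling, had 23.7 and 16.2 CPM in WT and 4.304 and 3.599 CPM in KO EAE and Ppm1l, a phosphatase, 51.8 and 46.1 CPM in WT and 11.6 and 8.61 CPM in KO EAE. For every one of these 12 falls both KO EAE libraries lay below both WT libraries, as the rule required. The calls of Stra6, Khdc1a, Selp and Arhgap20 were lost with some of the 4 libraries left out (highest adjusted p 0.0742, 0.0709, 0.0989 and 0.204), and those of the other 8 held. Against KO, none of the 24 genes was called.

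Set side by side, the steps behind the largest groups had these values. The regulatory T cell signature had a median log2 change of -0.43 in KO against WT and 0.04 in KO EAE against KO, beside -0.38 in KO EAE against WT. Macrophage and monocyte markers had 2.60 and -0.12, dendritic cell markers 2.33 and -0.44, and NK and cytotoxic genes 1.71 and 0.06. Neutrophil markers had 1.99 and 2.21, cell cycle genes 0.51 and 0.64, and the early receptor response -0.32 and 0.25. For the single genes, Gpr83 changed by -1.76 and -0.47, Lrrc32 by -1.65 and 0.35, Itgax by 4.24 and -0.73, Il17a by 1.71 and 1.55, Ifng by 0.98 and 0.23 and Tbx21 by 2.34 and -0.11. None of these genes or list members other than Nr4a3 and Dusp4 was called between KO EAE and KO. The steps share the KO libraries, so their values are not independent.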

How the data were processed

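RNA of sorted regulatory T cells was sequenced on a NextSeq500 after NEBNext Ultra II library preparation, per the labels' protocols. HISAT2, HTSeq and DESeq2 are named with mm10, per the submitters' processing notes, and their versions, the annotation and the strand setting are not given in the sources used. The authors deposited raw read counts, 1 whole number per gene and library, which were tested here. They also deposited a normalized signal, counts divided by size factors, for WT and KO only, in which 100% of values above 0 were whole multiples of 1 read (tolerance 0.02 reads). edgeR on those recovered reads called 12 genes between KO and WT. Only WT and KO levels of named genes are taken from it, and levels set across the 2 tables were normalized separately. The authors' table of fold changes between KO and WT was not used.

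Of 24449 rows, 25 that name no gene were left out (up to 0.217% of reads). The test was edgeR 4.0.16 under R 4.3.3 (filterByExpr with minimum count 10 and minimum total 15, TMM, glmQLFit, glmQLFTest, Benjamini-Hochberg over 14548 genes, threshold 0.05), with 1 coefficient for each of the 3 groups in all 6 libraries, 3 residual degrees of freedom and no block. The SE is the log2 change divided by the square root of F. Replicate ratios are log2 after adding 0.2 CPM. Replicates differed by more than sampling noise and each counted as 1 sample. Alternatives were a fit to 4 libraries, other scalings and filters, DESeq2 1.42.0, a replicate block and each library left out; the script's fit was tested on simulated data. Coordinates are from GENCODE M21, by symbol.

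The comparison, the 35 gene lists and the rule for named genes were chosen with earlier results of these data known, so no list was tested as a set. Of 594 list genes 588 matched by symbol, 1 by synonym and 5 not. Named genes are Bcl11b and Foxp3, the 12 largest called rises and falls averaging 5 CPM or more without overlapping groups (without predicted, antigen receptor, ribosomal protein, pseudogene and sex-linked genes), preset members of each list, and up to 3 called rises and falls per list. Some further genes, such as Dusp4, Il2, Xist, Rpl3, Fn1, Mpo, S1pr5 and Cx3cr1, lie outside this rule and were named after their values were seen. A few list genes are not reported here by name.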

Additional observations from a re-analysis of the deposited data

How the results depend on the processing

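The main result, 1078 genes higher and 284 lower in KO EAE than in WT, depended most on which libraries entered. A fit to the 4 compared libraries alone, with 2 residual degrees of freedom, gave 649 and 133. With 1 of the 6 libraries left out the numbers ran from 542 to 2105 higher and from 61 to 1657 lower, lowest without WT replicate 1 and highest without KO EAE replicate 1. The fits without a KO library were chosen after seeing the data. DESeq2 called 1593 higher and 620 lower. Other scalings and filters gave 1012 to 1104 higher and 236 to 303 lower. With the replicate number as a replicate block 1036 genes were higher and 265 lower. Same-numbered libraries did not deviate together in every pair of groups (correlations of 0.0124, -0.0861 and 0.197), so the numbers were not taken to pair the samples. Of 115 named genes with a call, 115 kept it with RLE scaling and DESeq2, 114 with the stricter filter, 111 without a filter, 110 with upper quartile scaling, 108 with the replicate block, 84 in the fit to 4 libraries, and 63, 64, 114 and 94 without WT replicates 1 and 2 and KO EAE replicates 1 and 2. No named gene with a call changed direction under any alternative run. The median of the CD8 lineage list changed sign, from 0.08 to -0.0377 with the replicate block and to -0.00952 without WT replicate 2, and it was 0.53 without KO EAE replicate 1. The Th2 median went from 0.22 to -0.11 with the stricter filter, and the interferon median from 0.04 to -0.37 without WT replicate 2 and -0.29 without KO EAE replicate 2. Medians within 0.05 of 0 (naive and central cells, T cell identity, heat shock and oxidative phosphorylation) also changed sign under some alternatives. At 3 reads, about 0.19 CPM, genes such as S100a8 in WT are at the limit of detection.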

Other observations

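Values in the authors' normalized table bear on the WT level that this comparison rests on, since its WT columns carry the same library names but other values, normalized separately. In unscaled CPM of the recovered reads, WT replicates 1 and 2 had 78.2 and 137 for Csf1r, 20.2 and 30.2 for Fcer1g, 455 and 469.9 for Il2ra, 264 and 216 for Gpr83, 29.2 and 45.4 for Tbx21, 8.94 and 5.15 for Ciita, 21.2 and 29.8 for Sostdc1 and 4.68 and 3.55 for Nr4a3. In the count table the TMM-scaled WT values were 48.1 and 58.7, 11.1 and 11.1, 351 and 333, 209 and 197, 14.1 and 14.9, 2.502 and 2.88, 0.313 and 0.184 and 270.3 and 272 CPM. Of these genes only Nr4a3 was lower in the WT columns of the normalized table. Csf1r, Fcer1g, Il2ra, Gpr83, Tbx21, Ciita and Sostdc1 were all higher there in both WT replicates. Between KO and WT that table gave log2 changes of -1.37 for Gpr83, -0.63 for Il2ra, 3.30 for Fcer1g, 1.44 for Csf1r and 0.31 for Sostdc1, beside -1.76, -0.87, 2.61, 2.75 and 6.96 in the count table. edgeR called 12 genes between KO and WT in the normalized table and 1873 in the count table. The normalized table holds no KO EAE library.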
